A study of Homo sapiens with 8 samples.

Results

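The genes described here encode laminin chains, the laminin-linking protein nidogen-1 and the heparan sulfate proteoglycan agrin, all components of the basement membrane. They were listed by name as LAMA3, LAMA4, LAMA5, LAMB1, LAMB2, LAMB3, LAMC1, NID1 and AGRN, and a feature was used only where the platform annotation gave it 1 of these genes and no other. Of the 9 genes, 8 had a value, among 17303 genes named in this way. AGRN, which encodes agrin, was not analysed here. LAMA4, LAMA5, LAMB1, LAMB2, LAMC1 and NID1 had a gene-level value from 1 transcript cluster each. LAMA3 and LAMB3 were read from exon-level probesets alone, by the median probeset of each array, and that median was also taken for the other 6 genes.

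MDA-MB-231 cells, from a line of human triple-negative breast cancer, were kept on standard culture plates in DMEM with fetal bovine serum. The cells had been transduced with lentivirus for stable expression of a short hairpin RNA (shRNA), which was a control hairpin in one group and a hairpin targeting the integrin α3 subunit in the other. Each group had 2 biological replicates on Affymetrix Human Exon 1.0 ST arrays, and every array was summarised once per gene and once per exon probeset, so the 8 samples are 4 arrays. The labels name 1 α3 hairpin and no rescue of α3, so loss of α3 and other effects of that hairpin or of the transduced cultures cannot be told apart.

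Laminins are trimers of 1 α, 1 β and 1 γ chain that are secreted into basement membranes. There nidogen links them to the collagen IV network and agrin carries heparan sulfate chains. Cells bind them through integrins, with integrin α3β1 (gene ITGA3 for its α subunit) among the main laminin receptors of epithelial cells, and through dystroglycan. The integrin α3 subunit is the target of the hairpin and is a different protein from the laminin α3 chain, the product of LAMA3.

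Intensities are linear PLIER values, given per array or as mean ± SD (n = 2 arrays per group). Differences are knockdown minus control on the log2(intensity + 16) scale, with the standard error (SE) and the adjusted p of limma. A feature in the lower 40% by mean over the 4 arrays was not tested. That limit was an intensity of 107 at the gene level, 92.4 for median probesets and 96.2 for single probesets. Array medians at the gene level were 177 and 186 in the controls against 168 and 171 in the knockdown, and the median log2 difference of all tested clusters was -0.055. The target gene ITGA3 measured 3480 and 3529 in the controls against 619 and 644 in the knockdown, where it fell by 2.44 on the log2 scale (adjusted p = 8.04e-05). All 8 markers fixed for MDA-MB-231 were above the filter limit, with mean intensities from 1133 to 5887. Their summed level was 29993 and 30326 in the controls against 25902 and 25021 in the knockdown, with AXL and LGALS1 called lower (adjusted p = 0.00691 and 0.0102), EGFR and CAV2 called higher (0.00449 and 0.0197) and 4 not past the threshold. By median probeset CD44 was called lower as well (adjusted p = 0.0437), a call lost in 8 of 15 alternatives. Of markers of other cells, 0 of 5 endothelial, 1 of 6 fibroblast and 2 of 3 leukocyte genes were above the filter limit. The summed leukocyte level was 371 and 332 in the controls against 343 and 420 in the knockdown, and the summed fibroblast level 391 and 374 against 404 and 395. PTPRC, the defining leukocyte marker, lay between 25.1 and 27.4. The luminal and epithelial markers had a summed level of 5034 and 5417 in the controls against 3578 and 3623 in the knockdown, with 6 of 9 tested and ESR1 and PGR below the filter limit on every array. That difference lay in KRT19, since the other 8 genes summed to 1222 and 1213 in the controls against 1221 and 1281 in the knockdown. Within that list KRT19 fell from 4008 ± 277 to 2350 ± 9.93 (adjusted p = 0.00359) and ERBB2 fell from 470.0 ± 13.8 to 339 ± 9.51 (adjusted p = 0.0170), while CDH1, too dim to be tested, read 25.4 and 28.8 in the controls against 177 and 168 in the knockdown. The part of these markers in the laminin results was not tested, and in RNA from whole cultures fewer cells of a kind and less RNA per cell cannot be told apart.

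Of the 4 member genes tested at the gene level, LAMB2 and LAMA5 were lower in the knockdown, none was higher, and LAMB1 and LAMC1 did not pass. Over all 13207 clusters tested, 15.3% were called lower and 5.99% higher. The median difference of the 4 genes was -0.24 on the log2 scale. With the median probeset, 1 of 5 tested genes was called lower, LAMB2, where 11.3% of all 9745 genes tested were called lower and 5.09% higher. The median over those 5 genes was -0.20, beside -0.067 over all genes tested.

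The promoters of 4 genes are printed here so that the 2 genes called lower, LAMB2 and LAMA5, can be read beside LAMB1 and LAMA3. The chain of LAMB1 takes the same place in the trimer as that of LAMB2. LAMA3 was too dim to be tested. Its median probeset was higher in the knockdown but did not pass in limma without the filter (adjusted p = 0.303). RefSeq promoters (GRCh38.p14) were matched by symbol for 8 of the 9 genes. Each sequence holds the 250 bases before a RefSeq transcription start, 5′ to 3′ on the strand of the gene. Only 1 start was read for each of these 4 genes, so the matches belong to that start and not to the whole gene. LAMB2 lies at chr3:49133051-49133300 on the minus strand, LAMA5 at chr20:62367313-62367562 on the minus strand, LAMB1 at chr7:108003162-108003411 on the minus strand and LAMA3 at chr18:23872770-23873019 on the plus strand. Capitals mark matches on either strand to the AP-1 element TGANTCA or the GC box GGGCGG, which is the sequence known to be bound by Sp1-family factors. Both motifs were chosen with the results known, as was the E-box CANNTG, which was counted but not marked. E-box matches numbered 0 for LAMB2, 1 for LAMA5, 0 for LAMB1 and 2 for LAMA3, and 61.8% of all windows held a match.
LAMB2: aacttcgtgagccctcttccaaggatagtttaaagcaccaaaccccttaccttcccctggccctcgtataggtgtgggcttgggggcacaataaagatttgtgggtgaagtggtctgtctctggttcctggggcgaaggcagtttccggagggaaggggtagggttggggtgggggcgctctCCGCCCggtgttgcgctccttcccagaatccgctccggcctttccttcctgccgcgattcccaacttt
LAMA5: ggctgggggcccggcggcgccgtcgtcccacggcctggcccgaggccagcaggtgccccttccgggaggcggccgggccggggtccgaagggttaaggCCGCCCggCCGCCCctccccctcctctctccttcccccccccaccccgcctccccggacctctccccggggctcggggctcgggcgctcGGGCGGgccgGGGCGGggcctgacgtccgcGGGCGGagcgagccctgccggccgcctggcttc
LAMB1: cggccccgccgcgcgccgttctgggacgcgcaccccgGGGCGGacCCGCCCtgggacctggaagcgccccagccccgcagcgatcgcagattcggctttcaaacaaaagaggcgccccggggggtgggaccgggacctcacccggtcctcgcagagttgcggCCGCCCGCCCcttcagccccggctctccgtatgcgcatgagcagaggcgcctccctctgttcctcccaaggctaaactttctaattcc
LAMA3: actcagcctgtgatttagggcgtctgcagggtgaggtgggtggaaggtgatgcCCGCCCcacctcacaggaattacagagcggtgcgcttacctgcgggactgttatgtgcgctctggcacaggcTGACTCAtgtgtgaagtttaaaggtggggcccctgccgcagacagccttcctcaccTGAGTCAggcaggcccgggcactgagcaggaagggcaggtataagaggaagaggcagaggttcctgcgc
LAMA3 had 2 AP-1 matches, the nearer one 62 bases before the start, while the windows of LAMB2, LAMA5 and LAMB1 had 0. Among all 35116 windows of this length, 6.6% held an AP-1 match and 42.6% a GC box. GC box matches numbered 1 for LAMB2, 5 for LAMA5, 4 for LAMB1 and 1 for LAMA3. Adjacent matches can share bases, so a capital run can hold 2 matches to the same motif, and no AP-1 match overlapped a GC box. Of the other members, LAMC1 had 3 GC boxes and NID1 had 1, LAMA4 had no match to either motif, and 1 of the 3 LAMB3 windows held an AP-1 match. These matches describe the letters in each window and are not evidence of binding.

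LAMB2 (transcript cluster 2674047) encodes the laminin β2 chain, known from the neuromuscular synapse and the kidney filter. At the gene level it read 1254 and 1216 in the controls against 905 and 825 in the knockdown. Both knockdown arrays lay below both controls, as in 39.6% of all clusters tested (22.3% had both above), and the gap between the groups was wider than the spread within either. LAMB2 fell from 1235 ± 27.3 to 865 ± 56.7, a log2 difference of -0.51 ± 0.082 (SE) with a 95% interval from -0.71 to -0.31, or 1.42-fold on the offset scale (adjusted p = 0.0105). Its median probeset read 947 and 958 in the controls against 720.0 and 618 in the knockdown, a log2 difference of -0.50 ± 0.122 (SE) (adjusted p = 0.0206). Without knockdown replicate 2 both calls were lost (adjusted p = 0.0771 at the gene level and 0.151 for the median probeset), while the differences were -0.44 and -0.40.

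LAMA5 (transcript cluster 3913018) encodes the laminin α5 chain, the α chain of most adult epithelial and vascular basement membranes. It read 754 and 810 (mean 782 ± 39.4) in the controls against 630.3 and 599.6 (mean 615 ± 21.7) in the knockdown at the gene level, with no overlap between the groups. The log2 difference was -0.34 ± 0.084 (SE), or 1.26-fold, with a 95% interval from -0.54 to -0.14 (adjusted p = 0.0357). The median of its 98 probesets read 554 and 624 in the controls against 475 and 463 in the knockdown, which is a similar difference of -0.31 ± 0.128 (SE) that did not pass (adjusted p = 0.122). The gene-level call was also lost without control replicate 2 (adjusted p = 0.0829), knockdown replicate 1 (0.130) or knockdown replicate 2 (0.229). It was lost as well with no filter (0.0644), with no intensity trend (0.0511) and with the arrays centred on their medians (0.0614).

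The other β and γ chains did not pass the test at either level. LAMB1 (transcript cluster 3067302), the gene of the widely expressed β1 chain, read 280.3 and 296 in the controls against 260.4 and 269.6 in the knockdown. Both knockdown arrays lay below both controls by a margin close to the spread within the groups, and the difference of -0.11 ± 0.095 (SE) had a 95% interval from -0.34 to 0.12 (adjusted p = 0.452). After centring or quantile normalization the LAMB1 difference was -0.022 or -0.0086. LAMC1 (transcript cluster 2371065) encodes the γ1 chain, shared by most laminin trimers. It read 1667 and 1786 in the controls against 1549.5 and 1586 in the knockdown, again without overlap. Its log2 difference of -0.14 ± 0.077 (SE) had a 95% interval from -0.32 to 0.048 (adjusted p = 0.255), and became -0.046 after centring. Median probesets gave -0.18 ± 0.155 (SE) for LAMB1 and -0.20 ± 0.108 (SE) for LAMC1, neither past the threshold (adjusted p = 0.461 and 0.244).

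LAMB3 encodes the β3 chain, the partner of the α3 chain in the laminin of the skin's epithelial attachments. Its cluster at the gene level carried more than 1 gene symbol, so it was read from 31 probesets. The median probeset was 1319.95 and 1479 in the controls against 1288 and 1267 in the knockdown. The knockdown arrays sat just below the lower control, and the difference of -0.13 ± 0.109 (SE) did not pass (adjusted p = 0.467, 95% interval from -0.37 to 0.11).

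LAMA3, LAMA4 and NID1 were dim and were not tested in the main comparisons. LAMA3, the gene of the laminin α3 chain, had a median over its 93 probesets of 38.1 and 51.1 in the controls against 59.6 and 61.7 in the knockdown. It was the only one of the 8 genes whose median probeset was above both controls in both knockdown arrays. Of the 8, 6 were below both. Over all genes tested these shares were 20.6% above and 37.9% below, but that set leaves out dim genes such as LAMA3, LAMA4 and NID1. The LAMA3 difference, 0.35 on the log2 scale, did not pass when the filter was dropped (adjusted p = 0.303). It depended on the summary used, since the mean over all probesets gave 0.26, and the median over the 26 probesets outside the lower 40% gave 0.15 with overlapping groups. LAMA4 (transcript cluster 2970086), whose α4 chain is known from vessel walls and fat, read 69.4 and 68.5 in the controls against 66.8 and 55.9 in the knockdown at the gene level, a difference of -0.14 that did not pass without the filter (adjusted p = 0.621). Its median probeset was 32.6 and 38.8 against 30.5 and 26.0 (-0.22), but the median over its 5 brighter probesets went the other way (0.72). That value came from probeset 2970106 alone, which was the middle one on every array. Of the 5, 3 were lower in the knockdown, and the median of their differences was -0.011. NID1 (transcript cluster 2462160), the gene of nidogen-1, read 89.7 and 79.8 in the controls against 100.1 and 85.9 in the knockdown, with overlapping groups and a difference of 0.11 (adjusted p = 0.700 without the filter). Its median probeset overlapped too, at 42.1 and 29.6 against 35.1 and 24.4, and had the opposite sign (-0.18). The direction of LAMA4 and NID1 therefore depended on how their probesets were summarised.

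**Figure D1:**
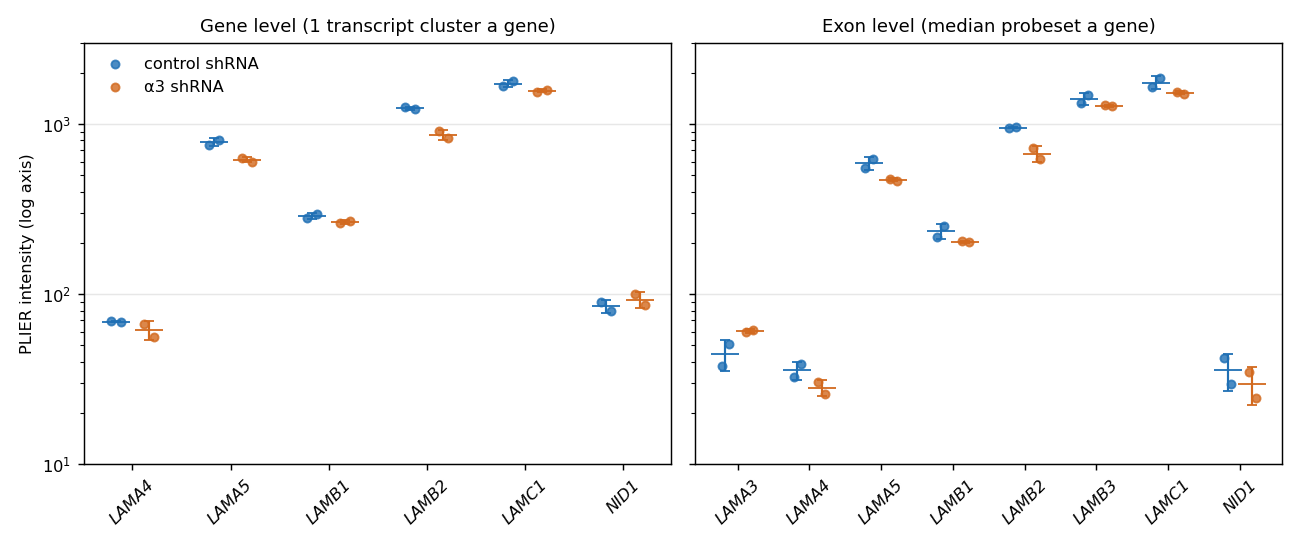
Intensity of each gene on each array, on a log axis, at the gene level (left) and as the median probeset (right). Dots are single arrays, short bars the mean of 2 arrays and whiskers the SD; LAMB2 shows the widest gap between control and knockdown, at 1235 against 865 at the gene level.

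**Figure D2:**
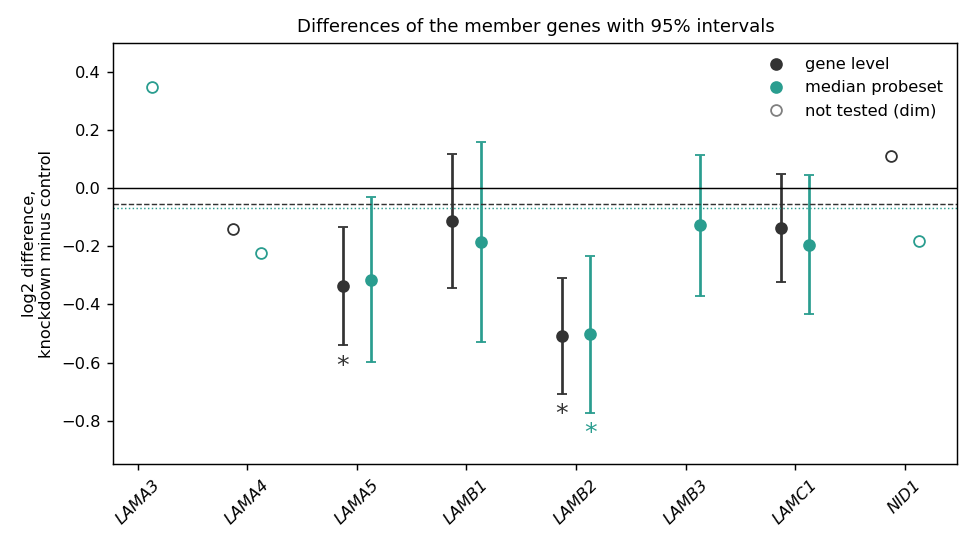
Log2 difference between knockdown and control for each gene at the gene level and as the median probeset, with 95% intervals for tested values, open circles for genes too dim to be tested and an asterisk for adjusted p under 0.05. The dashed and dotted lines are the medians of all tested clusters (-0.055) and of all genes tested by median probeset (-0.067); LAMB2 has an asterisk at both levels and LAMA5 at the gene level.

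Pairs of laminin genes were also compared within each array, some for chains that can join in 1 trimer and some for β chains that take the same place in it, since a scale factor shared by an array largely cancels there. The value given is the log2 value of one gene minus that of the other, and only its change between groups has meaning, because probes of different genes differ in brightness. For LAMB1 minus LAMB2 it was -2.10 and -1.98 in the controls against -1.74 and -1.56 in the knockdown, a change of 0.40. For LAMB2 minus LAMC1 it was -0.41 and -0.55 in the controls against -0.77 and -0.93 in the knockdown, a change of -0.37. LAMA5 minus LAMC1 changed by -0.20, LAMA5 minus LAMB1 by -0.23, LAMA5 minus LAMB2 by 0.17 and LAMB1 minus LAMC1 by 0.025. These 6 pairs come from 4 genes and are not independent. Each had an exact two-sided permutation p of 0.333, also after adjustment over the 6 pairs, which is the smallest p that 2 arrays against 2 can give, so these changes could not be shown to exceed chance by this test. Among the 10 pairs of median probesets, LAMB2 minus LAMB3 changed by -0.37 (exact permutation p = 0.333, adjusted p = 0.370), and the groups overlapped for LAMB1 minus LAMC1 (0.010, exact permutation p = 0.667).

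Single probesets show how evenly each gene's signal differed along its exons. The 8 genes had 422 probesets, of which 273 were tested, and probesets of 1 gene share their RNA and are not replicates. Because the filter used the mean over all 4 arrays, a probeset could pass through the group where it was high, and the tested probesets do not stand for all probesets of a gene. In all, 7 member probesets were called, all lower, where 3.25% of the 172397 probesets tested were called lower and 1.33% higher. Both knockdown arrays lay below both controls in 31.3% of all tested probesets and above both in 19.4%.

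In LAMB2, all 41 tested of 43 probesets were lower in the knockdown, with log2 differences from -0.78 to -0.053 and a median of -0.52. In 38 of them (92.7%) both knockdown arrays lay below both controls, and in 0 above. At an unadjusted p under 0.05, 35 were lower (21% of all tested probesets passed that limit in either direction), and 6 kept an adjusted p under 0.05. The probeset with the smallest p, 2674057, read 1629 and 1483 in the controls against 939 and 934 in the knockdown (log2 difference -0.72 ± 0.135 (SE), adjusted p = 0.0233). Probeset 2674077 read 1039 and 995 against 609 and 563 (adjusted p = 0.0254), and probeset 2674097 read 1005 and 955 against 614 and 594 (adjusted p = 0.0375). These examples each fell by a wider margin than the arrays of a group differed, but they were chosen for their small p, which favours such a gap. After centring each array, 85.4% of the LAMB2 probesets still lay below both controls, beside 24.1% of all tested probesets.

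In LAMA5, 88 of the 95 tested probesets were lower, with a median difference of -0.35 and a range from -0.90 to 0.61. Both knockdown arrays lay below both controls in 75 (78.9%) and above both in 1. At an unadjusted p under 0.05, 33 were lower and 0 higher. The one probeset past the adjusted threshold, 3913030, read 1621 and 1571 in the controls against 1083.5 and 1055 in the knockdown (log2 difference -0.57, adjusted p = 0.0434). The 7 probeset calls in LAMB2 and LAMA5 were each lost without the filter on dim features (adjusted p = 0.123 to 0.143), without the intensity trend (0.0851 to 0.133), without control replicate 1 (0.0853 to 0.151) and without knockdown replicate 2 (0.0709 to 0.168). Without control replicate 2 or knockdown replicate 1, 6 of the 7 were lost.

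The remaining genes had no probeset past the adjusted threshold. LAMC1 had 27 of 35 tested probesets lower (median -0.15), with 51.4% below both controls and 3 lower at an unadjusted p under 0.05. LAMB3 had 20 of 30 lower (median -0.052, beside -0.051 over all tested probesets), with 43.3% below both controls. After centring its median was 0.023, beside 0.024 over all tested probesets. The LAMB3 share below both controls was then 13.3%, beside 24.1% of all tested probesets. LAMB1 had 28 of 35 lower (median -0.10), with 37.1% below both controls, and 14.3% after centring. LAMA3 differed in sign from these chains, with 19 of its 26 tested probesets higher and a median of 0.21. Both knockdown arrays lay above both controls in 10 of the 26 (38.5%) and below both in 3, and after centring the share above was 57.7%, beside 26.4% of all tested probesets. Of those 10, 3 had a control mean under the filter limit and so were tested only through their knockdown values, as 1 of the 3 below both was through its controls. These shares of LAMA3 probesets are therefore a description and give no support to a rise. At an unadjusted p under 0.05, 1 LAMA3 probeset was higher. NID1 had 6 tested probesets, of which 5 were above both controls and 1 below both. LAMA4 had 5, of which 1 was above both controls.

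**Figure D3:**
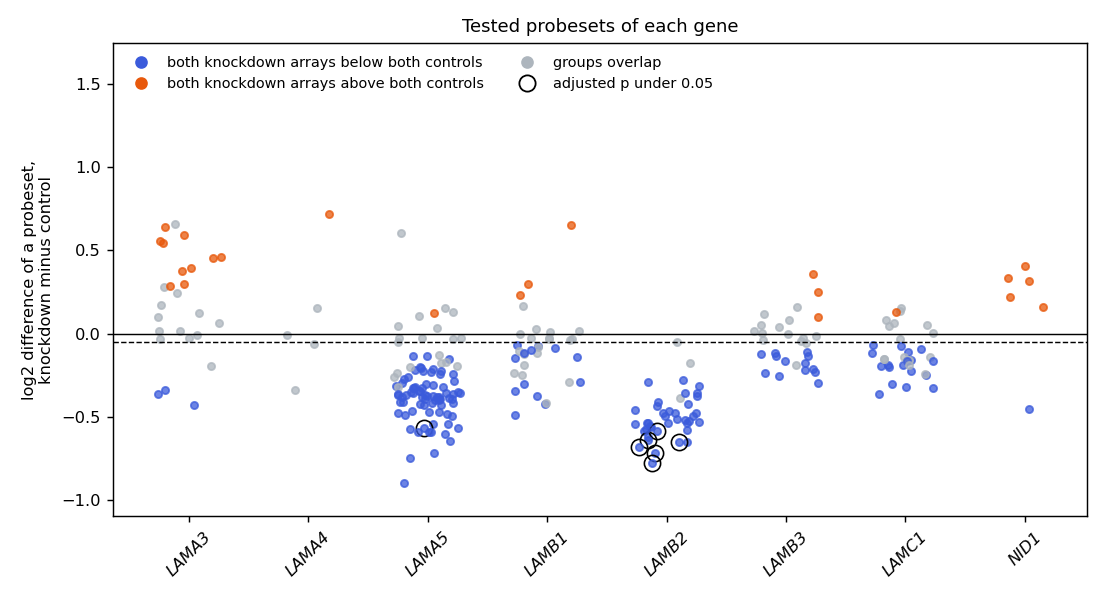
Log2 difference of each tested probeset, knockdown minus control, by gene, with dots spread sideways for legibility. Blue and orange mark probesets whose knockdown arrays both lie below or both above the controls, grey marks overlap, black rings mark adjusted p under 0.05 and the dashed line is the median of all tested probesets (-0.051); all 41 LAMB2 dots lie below 0.

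Each tested probeset was also set against the mean of the other tested probesets of its gene, which asks whether part of a gene differed apart from the rest. None of the 273 member probesets passed in limma, where 0.0444% of the 155391 tested passed. At an unadjusted p under 0.05 there were 12 (4.40%), beside 6.06% of all probesets tested, and they were 4 in LAMA3, 4 in LAMA5, 2 in LAMA4, 1 in LAMB1 and 1 in NID1, with 0 in LAMB2, LAMB3 and LAMC1. For LAMB2 the smallest adjusted p was 0.881, so no probeset was shown to depart from the shift of the whole gene.

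Another 5 laminin and nidogen genes were read, and none was bright enough to be tested. LAMA1, LAMA2, LAMB4, LAMC3 and NID2 were all below the filter limit, with mean intensities from 42.2 (LAMA2) to 102 (LAMC3). Without the filter none of the 5 passed at the gene level in limma, and 0 had an unadjusted p under 0.05 (smallest adjusted p = 0.531, LAMA1).

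Other basement membrane genes moved in both directions. Of 21 listed genes 16 had a gene-level value and 6 were tested, of which 1 rose, 3 fell and 2 did not pass, with a median difference of -0.32. Over all clusters tested 15.3% were called lower and 5.99% higher, and by median probeset 11.3% and 5.09% of all genes tested. COL4A1, which encodes the α1 chain of collagen IV, read 219 and 275 in the controls against 411 and 433 in the knockdown, and rose by 0.74 on the log2 scale (adjusted p = 0.0118). COL4A2, its partner chain, read 516 and 589 against 629.7 and 618 and did not pass (0.17, adjusted p = 0.243). FBLN1, which encodes the matrix glycoprotein fibulin-1, read 309 and 328 in the controls against 149.7 and 161 in the knockdown and fell by 0.96 (adjusted p = 0.00362). NTN4, which encodes netrin-4, a protein known to bind the γ1 chain and disrupt laminin networks, read 232 and 329 against 135 and 165 and fell by 0.82 (adjusted p = 0.0257). FRAS1, a protein of the epidermal basement membrane, read 208 and 253 against 141 and 134 and fell by 0.68 (adjusted p = 0.0161). HSPG2, the gene of the proteoglycan perlecan, was read by its median probeset alone, at 180.0 and 183 in the controls against 161 and 157 in the knockdown (-0.18, adjusted p = 0.481). With median probesets 9 genes of the list were tested, of which 1 rose and 3 fell, with a median of 0.13, opposite in sign to the gene-level median. The NTN4 call was lost in 4 of 12 alternatives, among them without control replicate 2, knockdown replicate 1 or knockdown replicate 2 (adjusted p = 0.0620, 0.0959 and 0.0505), and that of FRAS1 without knockdown replicate 1 or 2 (0.0617 and 0.0866). COL4A1 lost its call without knockdown replicate 2 (0.0666), and FBLN1 kept it in all 12.

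Of 17 listed receptors, 13 had a gene-level value and 11 were tested, of which 2 rose, 5 fell and 4 did not pass, with a median difference of -0.17. The list includes ITGA3 itself, which is 1 of the 5 that fell. Among all clusters tested 15.3% were called lower and 5.99% higher, and by median probeset 11.3% and 5.09% of all genes tested. ITGA6, the α6 subunit and the other main laminin-binding α chain, read 2129 and 2153 in the controls against 1638 and 1635 in the knockdown and fell by 0.38 (adjusted p = 0.0151). SDC1, which encodes the heparan sulfate proteoglycan syndecan-1, read 669 and 686 against 345 and 402 and fell by 0.84 (adjusted p = 0.00470). BCAM, known as a receptor for the α5 chain, read 295 and 319 against 236 on both knockdown arrays and fell by 0.36 (adjusted p = 0.0464). CD151, the tetraspanin partner of laminin-binding integrins, read 2207 and 2009 against 1708 and 1608 and fell by 0.34 (adjusted p = 0.0345). ITGA2, a subunit of a collagen and laminin receptor, read 1505 and 1559 against 2042 and 1888 and rose by 0.36 (adjusted p = 0.0260), and ITGB3 read 129.8 and 132 against 177 and 211 and rose by 0.51 (adjusted p = 0.0341). SDC2 read 1025 and 969 against 1196 and 1189 and did not pass (0.26, adjusted p = 0.0597). SDC4 did not pass either (0.16, adjusted p = 0.299), nor did the β subunits ITGB1 and ITGB4. ITGB1 read 3172 and 3362 in the controls against 2958 and 2839 in the knockdown (adjusted p = 0.168), and ITGB4 read 996 and 1082.5 against 1041 and 1088 (adjusted p = 0.806). DAG1, the gene of dystroglycan, was read by its median probeset, at 572 and 593 against 688 and 659.6 (0.20, adjusted p = 0.271). With median probesets 12 receptors were tested, of which 1 rose, 3 fell and 8 did not pass. At that level ITGA6 and BCAM did not pass (adjusted p = 0.0566 and 0.187), and ITGB3 was too dim to be tested. SDC1 kept its gene-level call in all 13 alternatives, whereas BCAM lost it in 7 of 12, CD151 in 7 of 13, ITGB3 in 5 of 12, ITGA2 in 4 of 13 and ITGA6 in 2 of 13. Without knockdown replicate 2, the adjusted p was 0.239 for BCAM, 0.195 for CD151, 0.230 for ITGB3, 0.0841 for ITGA2 and 0.0971 for ITGA6, and without knockdown replicate 1 it was 0.217, 0.0970, 0.0688, 0.163 and 0.0829.

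Dystroglycan binds laminin through a sugar chain built by a set of Golgi and endoplasmic reticulum enzymes. Of 13 listed enzymes 8 were tested at the gene level, of which 0 rose, 2 fell and 6 did not pass, with a median of -0.23. The shares over all clusters tested were 15.3% lower and 5.99% higher, and by median probeset 11.3% and 5.09% of all genes tested. B3GALNT2, an N-acetylgalactosamine transferase of this pathway, read 483 and 527 in the controls against 327 and 369.7 in the knockdown and fell by 0.52 (adjusted p = 0.0183). POMGNT1, an N-acetylglucosamine transferase, read 665 and 631 against 492 and 528 and fell by 0.34 (adjusted p = 0.0388), a call lost in 8 of 13 alternatives (adjusted p up to 0.239). The B3GALNT2 call was lost without control replicate 2, knockdown replicate 1 or knockdown replicate 2 (0.0536, 0.117 and 0.0595). With the median probeset, 1 of 8 enzymes fell and 7 did not pass.

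A list of 14 proteases was read for cleavage of laminin chains, nidogen or agrin, directly or through activation of plasminogen. At the gene level 8 were tested, of which 0 rose, 3 fell and 5 did not pass, with a median of -0.25. Over all clusters tested 15.3% were called lower and 5.99% higher, and by median probeset 11.3% and 5.09% of all genes tested. MMP3, which encodes stromelysin-1, read 278 and 313 in the controls against 93.6 and 106 in the knockdown and fell by 1.43 (adjusted p = 0.00197). PLAU, the gene of the urokinase plasminogen activator, read 3325 and 3403 against 2056 and 2068 and fell by 0.70 (adjusted p = 0.00316). PLG, the gene of plasminogen, was too dim to be tested. Its median probeset read 18.9 and 27.6 in the controls against 20.6 and 23.0 in the knockdown. MMP14, which encodes a membrane-anchored matrix metalloproteinase, read 1722 and 1958 against 1298 and 1245 and fell by 0.52 (adjusted p = 0.0121). BMP1, a procollagen protease that also processes laminin chains, read 148 and 144 against 182 and 199 and did not pass (0.35, adjusted p = 0.0696). MMP3 and PLAU kept their calls in all alternatives that tested them, and MMP14 lost its call without knockdown replicate 2 (adjusted p = 0.0680). With median probesets 7 proteases were tested, of which 3 fell and 0 rose.

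**Figure D4:**
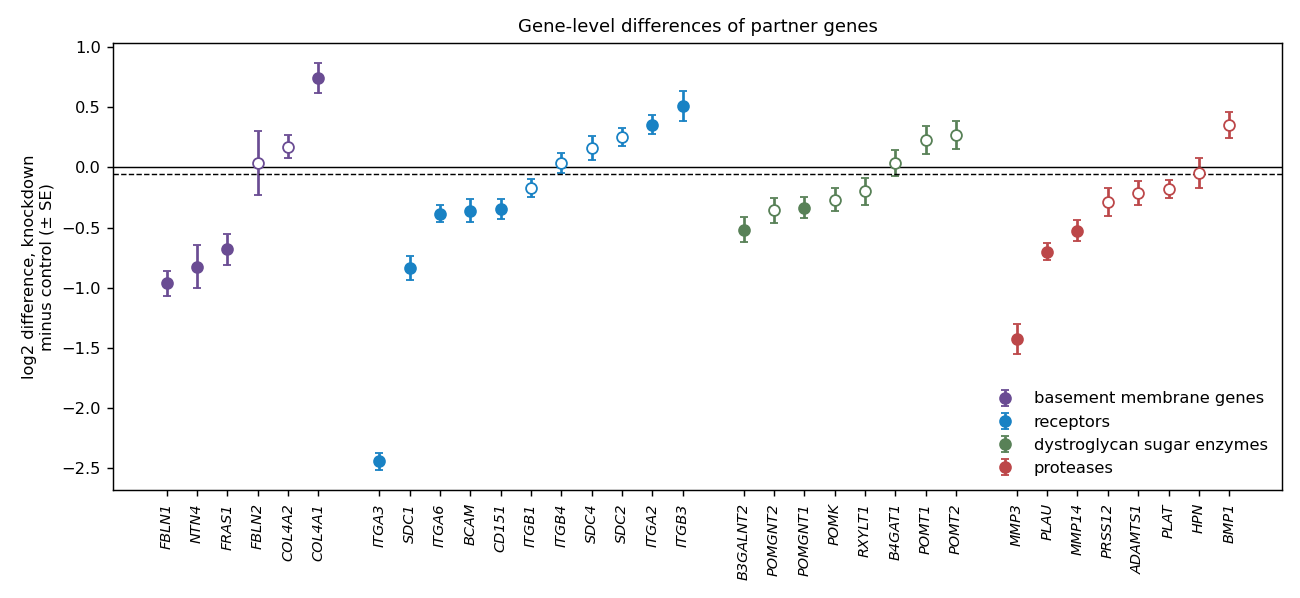
Gene-level log2 differences, knockdown minus control, of the tested basement membrane genes, receptors, dystroglycan sugar enzymes and proteases, with SE as whiskers and filled dots for adjusted p under 0.05. The dashed line is the median of all tested clusters (-0.055); ITGA3, the target of the hairpin, lies lowest at -2.44, and COL4A1, at 0.74, is the highest filled dot.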

How the data were processed

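RNA from 2 control and 2 knockdown cultures was read on exon arrays. The deposited values are PLIER intensities, made by the authors with Affymetrix Expression Console on core gene and core exon probesets, per the labels, while the series design names the Exon Array Computational Tool. The software versions, and how background and array scale were handled, were not given in the sources used here. Features were named through the platform annotation, with symbols updated from NCBI RefSeq.

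Intensities were transformed as log2(value + 16), the lower 40% by mean was left out, and groups, taken from the sample titles, were compared by linear models (R 4.3.3, limma 3.58.1, lmFit, eBayes with an intensity trend, two-sided, 2 residual degrees of freedom). Benjamini-Hochberg adjustment ran over all features tested, with a threshold of 0.05. Median probesets were taken for genes with at least 3 probesets. With 4 arrays the precision is limited, and p-values rest only on the spread between these cultures. The variance of each feature was drawn towards that of other features of like intensity, so a p-value does not rest on that feature's own spread alone. The steps were tested on simulated data, with noise independent between arrays and with changes larger than those of LAMB2 and LAMA5. That simulation therefore does not show how well changes of their size are found. Data were handled with the R package data.table (1.17.8) and figures with Python 3.11.15 and matplotlib 3.10.9.

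The text names all members, every called gene of each list with some others, not always those of smallest p, and up to 3 called probesets a member. Members, lists and motifs were chosen with earlier results of these data known. Alternatives were another offset, filter, variance model or scaling, a block on the replicate number, another summary over probesets and leaving out each array.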

Additional observations from a re-analysis of the deposited data

How the results depend on the processing

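Alternatives were run for the tested member genes and for called genes, and 0 of these differences reversed. LAMA3, LAMA4 and NID1 were refitted only without the filter, while the signs of LAMA4 and NID1 changed with the summary over probesets. Other listed genes that did not pass were not followed through the alternatives. LAMB2 kept its call in 12 of 13 gene-level settings and 14 of 15 for the median probeset, with log2 differences from -0.57 to -0.42 and from -0.61 to -0.40. LAMA5 kept its gene-level call in 7 of 13, and LAMB1, LAMB3 and LAMC1 passed in none. LAMB1 had no test with the lower 60% left out at either level, or with the median over probesets outside the lower 40%, since it then lay among the dim genes. The causes of the changes below were not tested. Members called at the gene level numbered 2, but 1 without the filter, without the intensity trend or after centring, and 0 to 2 with 1 array left out, where the spread of the lone array is taken from the other arm. The 0 came without knockdown replicate 2, where limma gave 1 member an unadjusted p under 0.05. With median probesets 1 member was called, but 2 with the mean over probesets and 0 to 1 with 1 array left out. Clusters called fell from 2807 to between 798 and 2410 with 1 array left out, and genes by median probeset from 1596 to between 1040 and 1550. Probesets called numbered 7891, but 163 without the filter, 1693 without the trend and 3009 to 5254 with 1 array left out. Probesets called against the rest of their gene numbered 69, but 43 with an offset of 1, 0 without the filter (limma, 17387 at an unadjusted p under 0.05), 24 with the lower 60% left out, 22 without the trend and 31 to 189 with 1 array left out. Of called clusters, 791 were higher and 2016 lower, against 1351 and 1674 after quantile normalization and 1496 and 1507 after centring.

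The replicate numbers are shared by the groups, but no label pairs them, and with 2 pairs the deviations of same-numbered arrays correlated at 0.29 at the gene level and 0.30 for probesets. As a block, the replicate number gave 2 members called by median probeset (LAMB2 and LAMA5), 3224 genes by median probeset, 28957 probesets and 397 probesets against the rest of their gene.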

Other observations

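Some genes around laminin were too dim on the mean of the 4 arrays to enter the main comparison, although the groups differed widely. CTSS, which encodes the protease cathepsin S, read 159 and 160 in the controls against 53.7 and 52.8 in the knockdown, a log2 difference of -1.34 that passed when the filter was dropped (adjusted p = 0.00816, limma). CDH1, which encodes E-cadherin, differed by 2.13 on the log2 scale and passed in the same fit (adjusted p = 0.00435). FREM2, a partner of FRAS1 in the epidermal basement membrane, read 38.5 and 45.5 in the controls against 22.1 and 20.9 in the knockdown (-0.62) and did not pass (adjusted p = 0.0658).

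A few member probesets stood apart from the rest of their gene in size without passing the test, and were chosen here after their values were seen. NID1 probeset 2462230 read 317 and 276 in the controls against 224 and 199 in the knockdown, while the 5 other tested NID1 probesets were higher in the knockdown (relative difference -0.74, adjusted p = 0.315). LAMA3 probeset 3781801 read 393 and 398 in the controls against 280.2 and 341 in the knockdown, against higher values in most of that gene (relative difference -0.55, adjusted p = 0.481). LAMB1 probeset 3067401 read 682 and 629 in the controls against 808 and 1335 in the knockdown, with the knockdown arrays far apart (relative difference 0.78, adjusted p = 0.553).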
